A study of Homo sapiens with 12 samples.

Results

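The genes described here are 43 genes of mitosis, chosen by name for their roles at the transition from G2 to M phase and in the spindle, the kinetochore and condensin. All 43 were present among the 37471 genes of the expression table used here. All 43 also passed the filter for testing, a mean of at least 1 FPKM over the 12 libraries, which 9778 genes passed. FPKM is a level of RNA corrected for transcript length and for the mapped fragments of the library. Genes on chromosomes 3 to 9 are not analysed here, and mitotic genes that lie on them are not among the 43.

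The cells were CAL62, an established line from an anaplastic thyroid carcinoma. Isogenic derivatives were made in which doxycycline induces either mature hsa-miR-139-5p (the miR-139 line) or a scrambled, non-targeting sequence (the scrambled line). The 4 groups were the miR-139 line given 1 µg/ml doxycycline for 96 h, the miR-139 line untreated, the scrambled line given 1 µg/ml doxycycline for 96 h, and the scrambled line untreated, with 3 polyA RNA libraries in each. The untreated cells are labelled 0 hours, so doxycycline and the time in culture cannot be told apart within a line; the scrambled line carries both. No source used here says whether each line is 1 clone or how far the miRNA was induced. Each library carries a tag in its column name, NE, TR or C, with 1 library of each tag per group. The labels do not say what the tags mean. Unless stated otherwise, the 3 values of a group are given in the order NE, TR and C, and values of 1 tag in the order miR-139 with doxycycline, miR-139 untreated, scrambled with doxycycline and scrambled untreated.

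As background, entry into mitosis is driven by the kinase CDK1 bound to a B-type cyclin. Aurora kinases and Polo-like kinase then drive centrosome maturation, spindle assembly and chromosome attachment. Kinetochores, built on centromeric chromatin marked by CENPA, hold the spindle microtubules through the NDC80 complex, and unattached kinetochores keep the spindle checkpoint on. Once all are attached, the anaphase-promoting complex with its activator CDC20 marks securin and cyclin B for destruction, and separase then cuts the cohesin that holds sister chromatids. Condensin compacts chromosomes, and kinesins and midzone proteins move them and complete division. Most of these genes are transcribed late in the cell cycle under the DREAM and MuvB-MYBL2-FOXM1 complexes, which act through the CHR element of their promoters. Many of these promoters also hold CCAAT boxes, a separate motif. In a growing cancer line their RNA follows the share of cells that are in G2 and M. In bulk RNA, fewer dividing cells and less of an mRNA per cell cannot be told apart.

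The induced miRNA and the matches to its seed in these genes are shown because a direct action of the miRNA on an mRNA would run through such a match. The mature sequence is from RefSeq (GRCh38.p14, chr11:72615102-72615124, minus strand), and the capitals mark its seed, bases 2 to 8. The sites below are 7-base matches to that seed in annotated 3′ UTRs (GENCODE 29, GRCh38), written as the mRNA strand, with the match in capitals. They lie at chr12:6844955-6844961 for CDCA3, at chr19:11146012-11146018 for SPC24 and at chr17:40389237-40389243 for TOP2A, all on the minus strand.
hsa-miR-139-5p: uCUACAGUgcacgugucuccagu
CDCA3 site: ttgaatatagACTGTAGactgtagtat
SPC24 site: caatcccagcACTGTAGaaggcagagg
TOP2A site: gttcttctgaACTGTAGaaatagctat
The 7-mer ACTGTAG was found in the longest annotated 3′ UTR of 6 of the 43 mitosis genes (13.95%), against 891 of 7939 tested genes with a 3′ UTR (11.22%). The median 3′ UTR was 794 bases long in the mitosis genes and 1301 bases long in the tested genes. CDCA3 held 2 adjacent matches and CDCA8, INCENP, PRC1, SPC24 and TOP2A 1 each. Base pairing alone does not make a functional site. The changes of these 6 genes with doxycycline are given with the miR-139 line.

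Promoters are shown for CDC20, SPC24 and PLK1, the 3 genes with the highest difference of the NE libraries from the others, and for KIF18A and CENPF, the lowest and the next to it. Each run is the RefSeq window (GRCh38.p14) from 250 bases before to 50 bases after the gene's start, on the strand of the gene. Capitals mark matches on either strand to 3 kinds of motif. A CHR element was searched as TTTGAA, the usual form, and as TTCGAA, a rarer one. CCAAT boxes were searched by those 5 letters, so that ATTGG also stands in capitals where the box lies on the other strand. E2F-type motifs were searched as TTTCCCGC, TTTGGCGC, TTTCGCGC and TTTGCCGC. The windows are chr1:43358731-43359030, plus strand, for CDC20; chr19:11155733-11156032, minus strand, for SPC24; chr16:23678639-23678938, plus strand, for PLK1; chr11:28108107-28108406, minus strand, for KIF18A; and chr1:214602945-214603244, plus strand, for CENPF.
CDC20 promoter: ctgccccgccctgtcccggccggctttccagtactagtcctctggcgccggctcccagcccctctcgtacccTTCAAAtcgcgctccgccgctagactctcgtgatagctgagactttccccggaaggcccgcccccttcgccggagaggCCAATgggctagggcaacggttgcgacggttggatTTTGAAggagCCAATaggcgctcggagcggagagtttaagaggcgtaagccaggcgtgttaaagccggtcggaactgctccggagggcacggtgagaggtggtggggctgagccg
SPC24 promoter: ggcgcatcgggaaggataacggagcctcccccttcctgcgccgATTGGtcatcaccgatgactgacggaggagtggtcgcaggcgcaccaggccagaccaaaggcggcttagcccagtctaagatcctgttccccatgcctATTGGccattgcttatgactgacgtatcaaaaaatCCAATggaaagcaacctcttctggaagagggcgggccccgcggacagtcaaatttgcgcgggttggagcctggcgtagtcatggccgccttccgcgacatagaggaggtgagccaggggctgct
PLK1 promoter: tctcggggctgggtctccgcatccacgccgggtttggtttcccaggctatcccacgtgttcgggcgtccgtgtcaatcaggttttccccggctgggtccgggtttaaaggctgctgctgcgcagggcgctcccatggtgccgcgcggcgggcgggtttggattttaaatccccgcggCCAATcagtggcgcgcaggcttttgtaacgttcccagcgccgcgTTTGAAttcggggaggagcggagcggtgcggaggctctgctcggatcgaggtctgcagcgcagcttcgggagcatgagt
KIF18A promoter: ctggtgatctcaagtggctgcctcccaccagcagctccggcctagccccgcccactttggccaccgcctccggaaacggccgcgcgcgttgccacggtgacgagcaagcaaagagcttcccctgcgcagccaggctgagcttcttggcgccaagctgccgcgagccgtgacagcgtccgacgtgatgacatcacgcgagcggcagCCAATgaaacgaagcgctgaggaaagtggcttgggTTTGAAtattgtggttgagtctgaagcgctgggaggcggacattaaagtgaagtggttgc
CENPF promoter: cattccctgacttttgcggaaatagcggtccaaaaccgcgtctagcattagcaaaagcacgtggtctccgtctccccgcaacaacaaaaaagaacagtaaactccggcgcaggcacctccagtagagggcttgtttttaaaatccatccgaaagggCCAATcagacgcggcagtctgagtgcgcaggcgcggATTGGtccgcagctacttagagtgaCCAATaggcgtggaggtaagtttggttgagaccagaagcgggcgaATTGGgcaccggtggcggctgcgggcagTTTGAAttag
In the CDC20 window, CHR elements began 178 and 65 bases before the start and CCAAT boxes 100 and 55 bases before it. SPC24 had CCAAT boxes 207, 109 and 74 bases before the start and no match to a CHR element. PLK1 had a CHR element 29 bases and a CCAAT box 73 bases before the start. KIF18A had them 10 and 45 bases before it, and CENPF had CCAAT boxes 94, 58 and 33 bases before the start and at base 13 of the transcript, with a CHR element at base 41 of the transcript. CHR letters thus stood in 4 of these 5 windows and CCAAT letters in all 5.

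Of the 43 genes, 36 had a promoter entry. A CHR element was found in 31 of these 36 (86.1%), against 19.5% of all 27305 promoter genes and 14.6% of the 6451 tested genes with an entry. The form TTTGAA alone was in 83.3% of the mitosis promoters, against 18.2% of all promoters and 12.8% of tested ones, and TTCGAA was in 5.6%, against 1.8% and 2.3%. A CCAAT box was in 29 of 36 (80.6%), against 39.7% of all and 44.0% of tested promoters. Both motifs stood in 1 promoter in 26 of 36 (72.2%), against 7.8% of all and 6.2% of tested promoters. E2F-type motifs were in 4 of 36 (11.1%), against 4.0% and 7.3%. Matches of different motifs may share bases, and each was counted. A match describes the letters of the window and is no evidence of binding.

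HNRNPF, the RNA-binding protein that the series names with the miRNA, had 113, 85.9 and 96.7 FPKM in the miR-139 line with doxycycline, against 238, 184 and 193 FPKM in the same line untreated. It had 265, 184 and 198 FPKM in the scrambled line with doxycycline and 246, 188 and 191 FPKM in the scrambled line untreated, so its low libraries were those labelled miR-139 with doxycycline. EIF4G2, a translation factor and reported target of the miRNA, had 238, 264 and 252 FPKM in the miR-139 line with doxycycline, against 451, 442 and 438 FPKM untreated. In the scrambled line EIF4G2 had 347, 418 and 428 FPKM with doxycycline and 355, 459 and 444 FPKM untreated. MIR139, the gene of the miRNA's hairpin, had 0 FPKM in every library, so the table does not show the induction itself. Of 4 thyroid follicular markers, PAX8 ranged from 56.0 to 142 FPKM, NKX2-1 was listed at 0 in all libraries, and TSHR and SLC5A5 stayed at or below 0.0217 FPKM; TG and FOXE1 were not analysed here. The epithelial keratins KRT8 and KRT18 were at 462 to 844 FPKM, and the leukocyte markers PTPRC and CD3E were listed at 0. The NE libraries stood apart from the others. They had at least 1 FPKM for 9518 to 9633 genes, against 9803 to 9884 genes in the C and TR libraries. Of the FPKM of all genes analysed here, mitochondrially encoded genes took 6.09% to 9.18% in the NE libraries, against 11.4% to 13.1%. FPKM carry no counts, so the depth of each library is unknown.

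All 43 mitosis genes were expressed in all 12 libraries, at means from 10.8 to 232 FPKM, which lay at percentiles 42.3 and 96.8 of the tested genes. UBE2C, the ubiquitin-conjugating enzyme of the anaphase-promoting complex, had 298, 193 and 191 FPKM in the miR-139 line with doxycycline, 258, 210.0 and 185 FPKM untreated, 356, 210.1 and 201 FPKM in the scrambled line with doxycycline and 309, 181 and 192 FPKM untreated. PRC1, which bundles the antiparallel microtubules of the midzone, had 248, 189 and 222 FPKM, 273, 211 and 215 FPKM, 216, 209 and 209 FPKM and 236, 211 and 197 FPKM in the same 4 groups. In both genes the ranges of the 4 groups overlapped, and in all 4 groups the NE library was the highest.

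TPX2, which activates Aurora A on the spindle, came next at a mean of 171 ± 25.8 FPKM (SD over 12 libraries). The 3 lowest genes were ESPL1 (separase), SKA1 (a microtubule-binding subunit of the outer kinetochore) and KIF14 (a kinesin of cytokinesis), at means of 17.7 ± 2.64, 13.1 ± 2.23 and 10.8 ± 2.04 FPKM (SD, n = 12 each). Of the NDC80 complex, SPC24 averaged 47.8, NUF2 33.3, SPC25 31.3 and NDC80 24.4 FPKM. NUF2 (26.2 to 37.7 FPKM) and SPC25 (26.6 to 38.2 FPKM), neighbours in that order, overlapped over the 12 libraries.

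**Figure D1:**
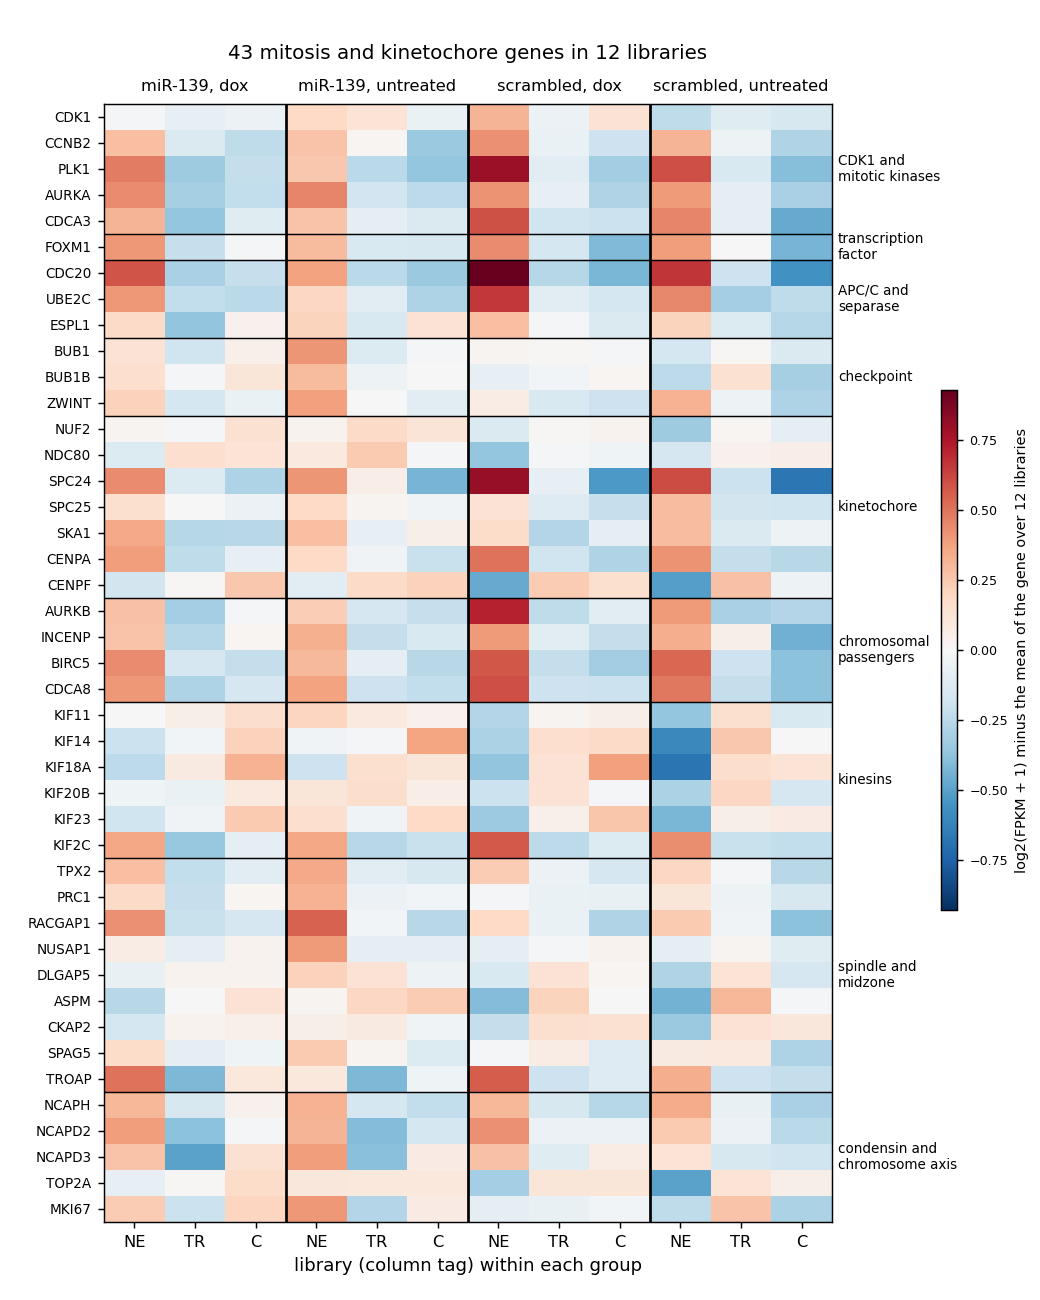
Levels of the 43 mitosis genes (rows, ordered by role) in the 12 libraries (columns, labelled by tag within each group), as log2(FPKM + 1) minus the mean of that gene over the 12 libraries, on a colour scale in log2 units. The NE column of each group stands out, higher than the TR and C columns for most genes and lower for KIF18A, CENPF, KIF14 and ASPM, and no gene was called between groups.

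Doxycycline was first compared with no treatment in the line that carries the inducible miRNA. None of the 43 genes passed the test. Their log2 changes, on the log2(FPKM + 1) scale, ran from −0.19 to 0.18 with a median of −0.04, against 0.00 over all tested genes; 16 were above 0 and 27 below. limma called 0 of 43 mitosis genes at an adjusted p of 0.05 and 0.0% of all tested genes, and before adjustment 0 of the 43 had a p under 0.05, against 72 of the 9778 tested genes. In this fit without a block, the differences between tags stay in the error, and the SEs given for comparisons of groups come from it. Its smallest limma adjusted p over all tested genes was 0.337, so HNRNPF was not called either. Its count for the 43 thus says little on its own. In the fit with the tag as a block, limma again called 0 of the 43, against 0.0205% of tested genes (2 genes), and before adjustment 0 of the 43 had a p under 0.05. In 0 of the 43 did the 3 treated and 3 untreated libraries not overlap, against 2.34% of tested genes higher and 2.05% lower.

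The gene with the lowest change was ASPM, a protein that focuses spindle poles, with 19.5, 23.5 and 25.9 FPKM with doxycycline, against 23.96, 27.1 and 27.9 FPKM untreated (log2 −0.19, SE 0.20). SKA1 had 16.7, 10.6 and 10.7 FPKM with doxycycline, against 15.9, 12.2 and 13.5 FPKM untreated (log2 −0.14, SE 0.20). CDK1 had 91.4, 87.6 and 88.9 FPKM with doxycycline, against 105, 101 and 88.8 FPKM untreated (log2 −0.14, SE 0.13). In all 3 genes the treated and untreated ranges overlapped, and for CDK1 the untreated C library was as low as the treated ones. At the other end, TROAP, a protein of the spindle and centrosome, had 56.2, 29.3 and 42.4 FPKM with doxycycline, against 42.4, 29.4 and 38.4 FPKM untreated (log2 0.18, SE 0.26). CDC20 had 127, 68.2 and 72.4 FPKM with doxycycline, against 109.5, 70.7 and 66.1 FPKM untreated (log2 0.10, SE 0.39). NCAPH, the kleisin subunit of condensin I, had 39.99, 28.9 and 33.02 FPKM, against 40.4, 28.5 and 27.2 FPKM (log2 0.09, SE 0.22). In each of these 3 the NE library was the highest within each group, and the difference between tags was wider than that between treatments.

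By role, the medians of the change were between −0.09 for the 3 checkpoint genes and 0.04 for the 3 genes of the anaphase-promoting complex and separase, leaving aside FOXM1, a single transcription factor (0.06). The 7 kinetochore genes had a median of −0.06, with 1 above 0, and the 9 spindle and midzone genes one of −0.06, with 1 above 0. All 4 genes of the chromosomal passenger complex lay between 0.00 and 0.04. The 6 genes with a match to the miRNA seed lay among the rest: CDCA3 at −0.07, CDCA8 at 0.00, INCENP at 0.02, PRC1 at −0.09, SPC24 at −0.01 and TOP2A at −0.06. None of these 6 was called; PRC1, the lowest of them, had an SE of 0.15.

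The sign of the median depended on the tag. Between the doxycycline and untreated libraries of the same tag, the median change of the 43 genes was −0.06 in NE (14 above 0), −0.10 in TR (4 above 0) and 0.08 in C (38 above 0). Without the NE libraries it was −0.01. The 95% intervals were taken one per gene and not adjusted for the number of genes. In the fit without a block these reached from −0.81 (SPC24) to 0.94 (CDC20) and extended 0.47 to either side at the median. With the tag as a block they extended 0.23 to either side at the median, and the intervals of all 43 genes lay between −0.43 (ASPM) and 0.43 (TROAP), or 0.740-fold to 1.34-fold. A change of 2-fold in any of the 43 was thus outside the interval of the blocked fit.

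**Figure D2:**
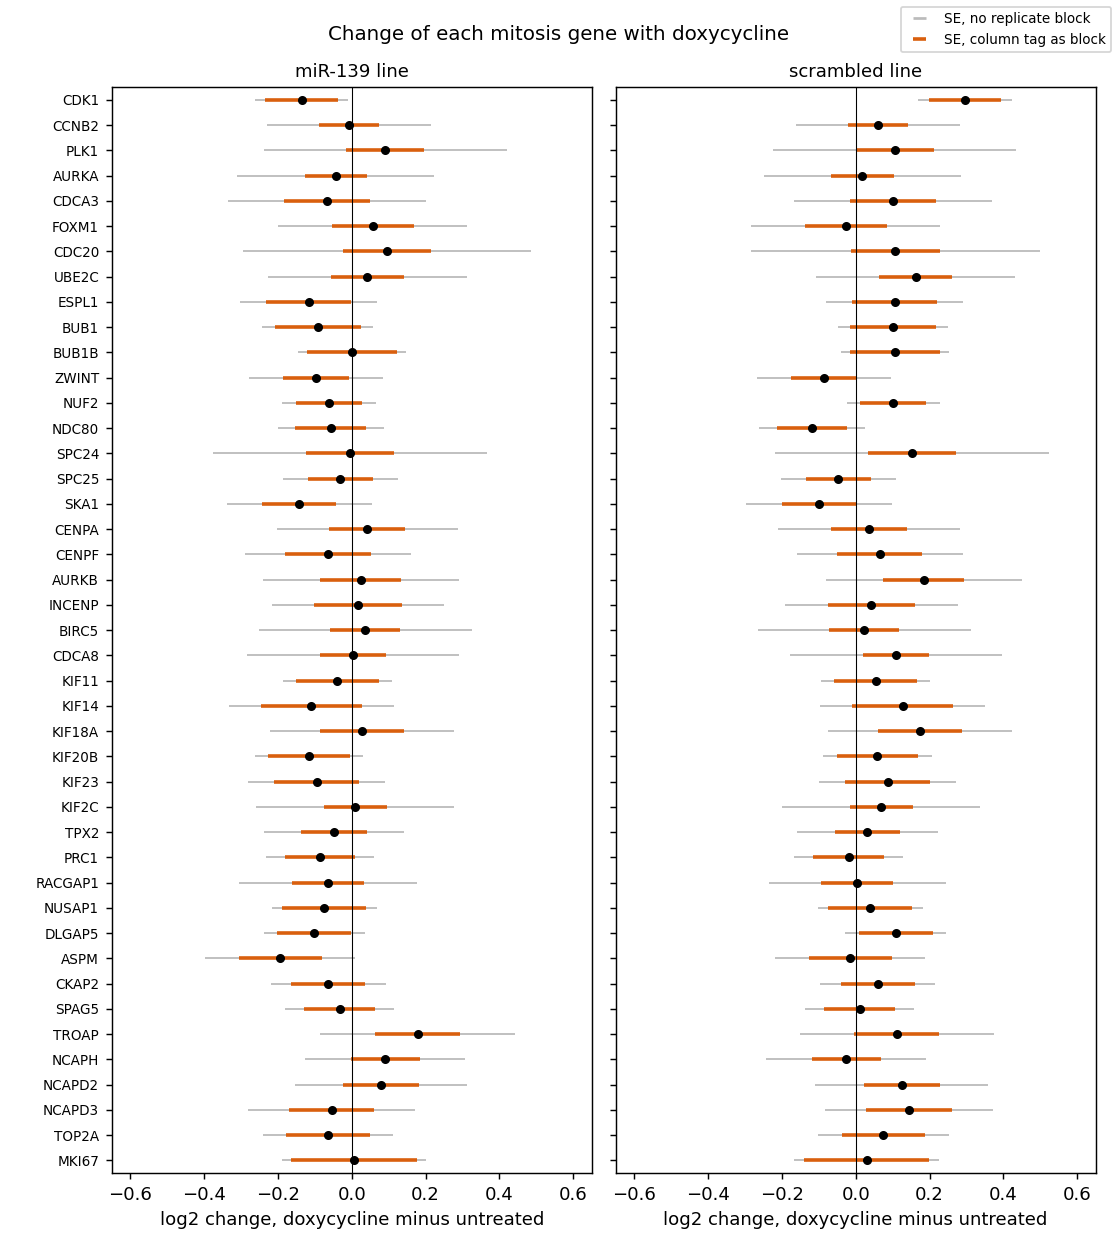
Log2 change of each mitosis gene with doxycycline (points, doxycycline minus untreated, log2(FPKM + 1)) with the miR-139 line on the left and the scrambled line on the right, and its standard error without a block (grey) and with the column tag as a block (orange); n = 3 libraries per group. All points lie between −0.19 and 0.30, and CDK1 stands farthest from 0 in the scrambled line.

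The same comparison in the scrambled line shows what doxycycline and culture time did where the scrambled sequence was induced in place of the miRNA. Again none of the 43 genes passed the test. Their median log2 change was 0.06, against 0.02 over all tested genes, with 35 above 0 and a range from −0.12 to 0.30. limma called 0 of 43, and 0.0% of tested genes, without the block, and likewise 0 of 43 and 0.0% with it; before adjustment, 1 of the 43 (CDK1) had a p under 0.05 in each fit, against 47 tested genes without and 391 with the block. Between same-tag libraries the median change was 0.10 in NE (35 above 0), −0.02 in TR (15 above 0) and 0.12 in C (39 above 0), and it was 0.04 without the NE libraries. The blocked 95% intervals of the 43 genes reached from −0.34 (MKI67) to 0.51 (CDK1).

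CDK1 had 115, 89.1 and 102 FPKM in the scrambled line with doxycycline, against 78.5, 85.6 and 83.6 FPKM untreated. It was the only one of the 43 whose treated libraries all lay above the untreated ones, as in 1.62% of tested genes, and 0 of the 43 lay wholly below, against 1.07%. Its log2 change was 0.30 (SE 0.13, limma adjusted p = 1.00, and 0.998 with the block). Between same-tag libraries the change was 0.55 in NE, 0.06 in TR and 0.28 in C, and without the NE libraries it was 0.17, so the NE pair gave the widest difference. The next highest were AURKB, the kinase of the chromosomal passenger complex (0.18, SE 0.27), and KIF18A, a kinesin that dampens chromosome movement (0.17, SE 0.25). AURKB had 256, 132 and 145 FPKM with doxycycline, against 205, 126 and 129 FPKM untreated. KIF18A had 17.1, 24.5 and 29.3 FPKM with doxycycline, against 13.6, 25.2 and 24.5 FPKM untreated. Both overlapped between the groups. The lowest were NDC80 (−0.12, SE 0.14), SKA1 (−0.10, SE 0.20) and ZWINT, which links the checkpoint to the kinetochore (−0.09, SE 0.18). NDC80 had 18.8, 23.9 and 23.6 FPKM with doxycycline, against 21.7, 24.97 and 25.4 FPKM untreated, and the groups overlapped. SKA1 had 14.6, 10.5 and 12.1 FPKM, against 16.00, 11.7 and 12.5 FPKM, and its NE library was the highest within each group. ZWINT had 126, 109 and 105 FPKM, against 150.4, 117 and 98.6 FPKM, also overlapping.

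The difference between these changes, that of the miR-139 line minus that of the scrambled line, is the test of whether doxycycline acted differently where the miRNA is induced. Of the 43 genes, 36 lay below 0 and 7 above, with a median of −0.09, against −0.02 over all tested genes, and a range from −0.43 to 0.12. None passed: limma called 0 of 43 and 0.0% of tested genes, and with the block 0 of 43 and 0.0102% (1 gene). Before adjustment, 1 of the 43 (CDK1) had a p under 0.05 in each fit, against 41 tested genes without and 336 with the block. Between same-tag libraries the median was −0.11 in NE (11 above 0), −0.08 in TR (11 above 0) and −0.04 in C (13 above 0), and without the NE libraries it was −0.06. All 6 kinesins, all 5 genes of CDK1 and the mitotic kinases, all 3 of the anaphase-promoting complex and separase and all 3 of the checkpoint were below 0, as were 5434 of the 9778 tested genes, and none was called. PLK1, CDC20 and ZWINT, which lay within 0.02 of 0, were above 0 after upper quartile scaling and after quantile normalization. This comparison and those within each line share their libraries.

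CDK1 had the lowest difference (−0.43, SE 0.18, limma adjusted p = 1.00 with and without the block). It was −0.75 in NE, −0.27 in TR and −0.28 in C, and −0.27 without the NE libraries. KIF14 followed at −0.24 (SE 0.32): it had 9.15, 10.4 and 12.5 FPKM in the miR-139 line with doxycycline, against 10.4, 10.5 and 14.00 FPKM untreated, and 8.49, 11.99 and 12.2 FPKM in the scrambled line with doxycycline, against 6.69, 12.8 and 10.7 FPKM untreated. For ESPL1 the difference was −0.22 (SE 0.26), from 19.99, 13.4 and 18.1 FPKM in the miR-139 line with doxycycline, against 20.4, 15.9 and 19.3 FPKM untreated, and 21.5, 17.5 and 15.9 FPKM in the scrambled line with doxycycline, against 20.5, 16.00 and 14.4 FPKM untreated. In both genes the 4 groups overlapped. The highest were NCAPH (0.12, SE 0.31), FOXM1 (0.08, SE 0.36) and TROAP (0.07, SE 0.37), all smaller than their errors.

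The lines were also compared directly. After doxycycline, the miR-139 line minus the scrambled line had a median of 0.00 over the 43 genes, against −0.01 over all tested genes, with 22 above 0 and a range from −0.18 to 0.19. limma called 0 of 43 (0.0% of tested genes), with 0 below a p of 0.05 before adjustment, and 0 of 43 in the blocked fit, against 0.112% of tested genes (11 genes). The groups of 3 overlapped in all 43, whereas they did not in 1.77% of tested genes (higher) and 2.42% (lower). Between same-tag libraries the median was 0.04 in NE, −0.10 in TR and 0.09 in C, and without the NE libraries it was −0.04 with 15 above 0. The extremes were CDK1 (−0.18), UBE2C (−0.15) and PLK1, the Polo-like kinase (−0.15), at the low end. KIF11, the kinesin that pushes spindle poles apart (0.13), MKI67, the proliferation antigen that coats chromosomes (0.14), and NDC80 (0.19) stood at the high end, with SEs of 0.13 to 0.33 over these 6. PLK1 had 108, 61.5 and 66.7 FPKM in the miR-139 line, against 136, 72.2 and 61.9 FPKM in the scrambled line. MKI67 had 59.2, 43.6 and 57.9 FPKM, against 47.4, 47.9 and 49.5 FPKM. Both overlapped between the lines.

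In untreated cells, the miR-139 line minus the scrambled line had a median of 0.10 over the 43 genes, against −0.00 over all tested genes, with 34 above 0. limma called 0 of 43 (0.0% of tested genes) without the block, where 0 of 43 had a p under 0.05 before adjustment, and 0 of 43 (0.0%) with it, where 2 did, CDK1 and NUF2. By tag the median was 0.15 in NE (25 above 0), −0.05 in TR (15 above 0) and 0.13 in C (38 above 0), and without the NE libraries it was 0.06. CDK1 and NUF2 were the 2 of 43 whose 3 miR-139 libraries all lay above the 3 scrambled ones, as in 1.53% of tested genes, and 0 of 43 lay wholly below, against 1.38%. CDK1 had 105, 101 and 88.8 FPKM in the miR-139 line, against 78.5, 85.6 and 83.6 FPKM in the scrambled line (log2 0.25, SE 0.13). NUF2, a subunit of the NDC80 complex, had 33.98, 37.7 and 36.03 FPKM, against 26.2, 33.6 and 31.3 FPKM (log2 0.24, SE 0.13). KIF11 had 48.5, 45.1 and 43.6 FPKM, against 32.7, 46.9 and 38.3 FPKM (log2 0.23, SE 0.15), and overlapped. At the low end stood PLK1 (−0.14), TROAP (−0.09) and NCAPD2, a condensin I subunit (−0.06), with SEs of 0.23 to 0.33.

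**Figure D3:**
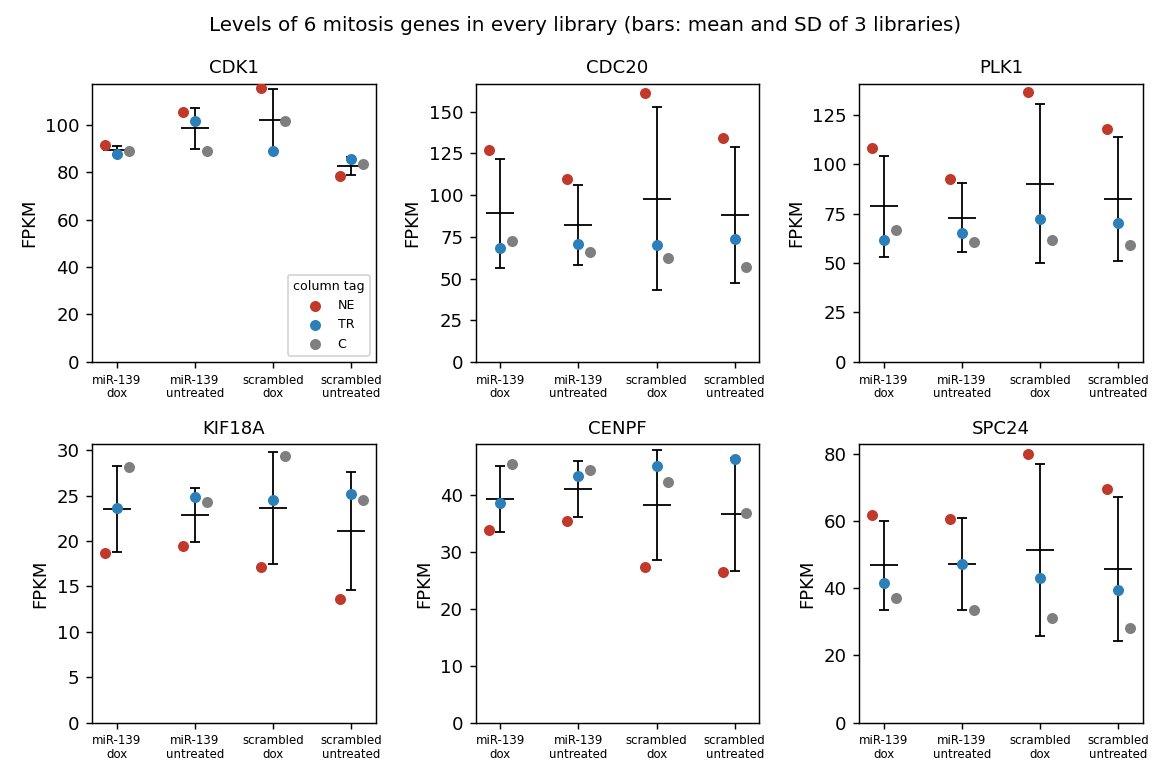
FPKM of CDK1, CDC20, PLK1, KIF18A, CENPF and SPC24 in every library (points, coloured by tag) by group, with bars for the mean and SD of the 3 libraries of a group. CDK1 overlapped between tags, CDC20, PLK1 and SPC24 were highest in the NE library of each group, and KIF18A and CENPF were lowest there.

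The widest differences among the 43 genes lay between the tags. In log2(FPKM + 1), 78.7% of the sum of squares over the 43 genes lay between tags and 6.23% between groups, against 62.5% and 13.1% over all tested genes. The group held more than the tag in 5 of the 43: CDK1 (59.4% against 8.20%), NUF2 (48.02% against 30.4%), KIF11 (32.2% against 23.9%), the checkpoint kinase-like protein BUB1B (32.3% against 4.23%) and MKI67 (11.1% against 7.43%). These shares are not corrected for the number of levels, 4 groups against 3 tags, which by itself gives the group more. They were not tested, and a larger share for the group does not show a difference between groups. Since the tag's meaning is not given, what follows compares libraries and no condition of the study.

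In the NE libraries, relative to the C and TR libraries with the group in the fit, 25 of the 43 mitosis genes were higher, 8 were lower and 10 did not pass the test. limma called 28.0% of all tested genes higher and 24.0% lower in the same comparison. The median log2 difference of the 43 genes was 0.37, against 0.02 over all tested genes. Summed over the 43 genes, the level was 3298 to 3558 FPKM in the NE libraries, against 2477 to 2829 FPKM in the C and TR libraries. Of the FPKM of all genes analysed here, this was a share of 0.534% to 0.625%, against 0.428% to 0.522%. The NE library was the highest of its group in 4 of 4 groups for 25 of the 43, as in 19.4% of tested genes, and the lowest in 4 of 4 for 4 of the 43 (CENPF, KIF14, KIF18A and ASPM), as in 15.7%. In 22 of the 43 the 4 NE libraries lay wholly above the other 8, and in 3 (CENPF, KIF14 and KIF18A) wholly below. The matching shares of tested genes were not counted, but they cannot exceed 19.4% and 15.7%. By group the median difference was 0.34 in the miR-139 line with doxycycline, 0.38 in that line untreated, 0.30 in the scrambled line with doxycycline and 0.38 untreated. The division by role was uneven. All 4 genes of the chromosomal passenger complex and all 3 of the anaphase-promoting complex and separase were higher, whereas 3 of 6 kinesins and the kinetochore genes CENPF and NDC80 were lower.

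The split of higher and lower calls depended on the scale. With each library scaled to its upper quartile, the median of all tested genes in this comparison moved by −0.10, 22 of the 43 were called higher, against 19.0% of tested genes, and 12 lower, against 31.9%. ESPL1, SPC25 and PRC1 were then no longer called, and NUF2, KIF11, KIF20B and DLGAP5 were called lower. With quantile normalization 22 were higher and 11 lower, with a median of 0.22 over the 43 genes and 0.02 over all tested genes. For this fit, and for those below without the filter or without 1 library, the share of all tested genes called is not given. CDK1, BUB1B and NUSAP1, which were not called, changed sign under both. ZWINT, PRC1 and NCAPD3 lost their calls under quantile normalization (limma adjusted p = 0.0685, 0.851 and 0.0522). Without the filter on low values 22 were called higher and 3 lower: ESPL1, NDC80, KIF14, KIF23, PRC1, CKAP2, NCAPD3 and TOP2A were then no longer called. Leaving out 1 library, 4 were lower without the NE library of the treated scrambled line and 4 without that of the untreated scrambled line, where 26 and 24 were higher. CKAP2, KIF23, NDC80, PRC1 and TOP2A each lost their call in at least 2 of the 12 fits that left out 1 library (NDC80 in 7), at limma adjusted p of 0.051 to 0.116, and the other 28 called genes kept theirs in all 12.

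**Figure D4:**
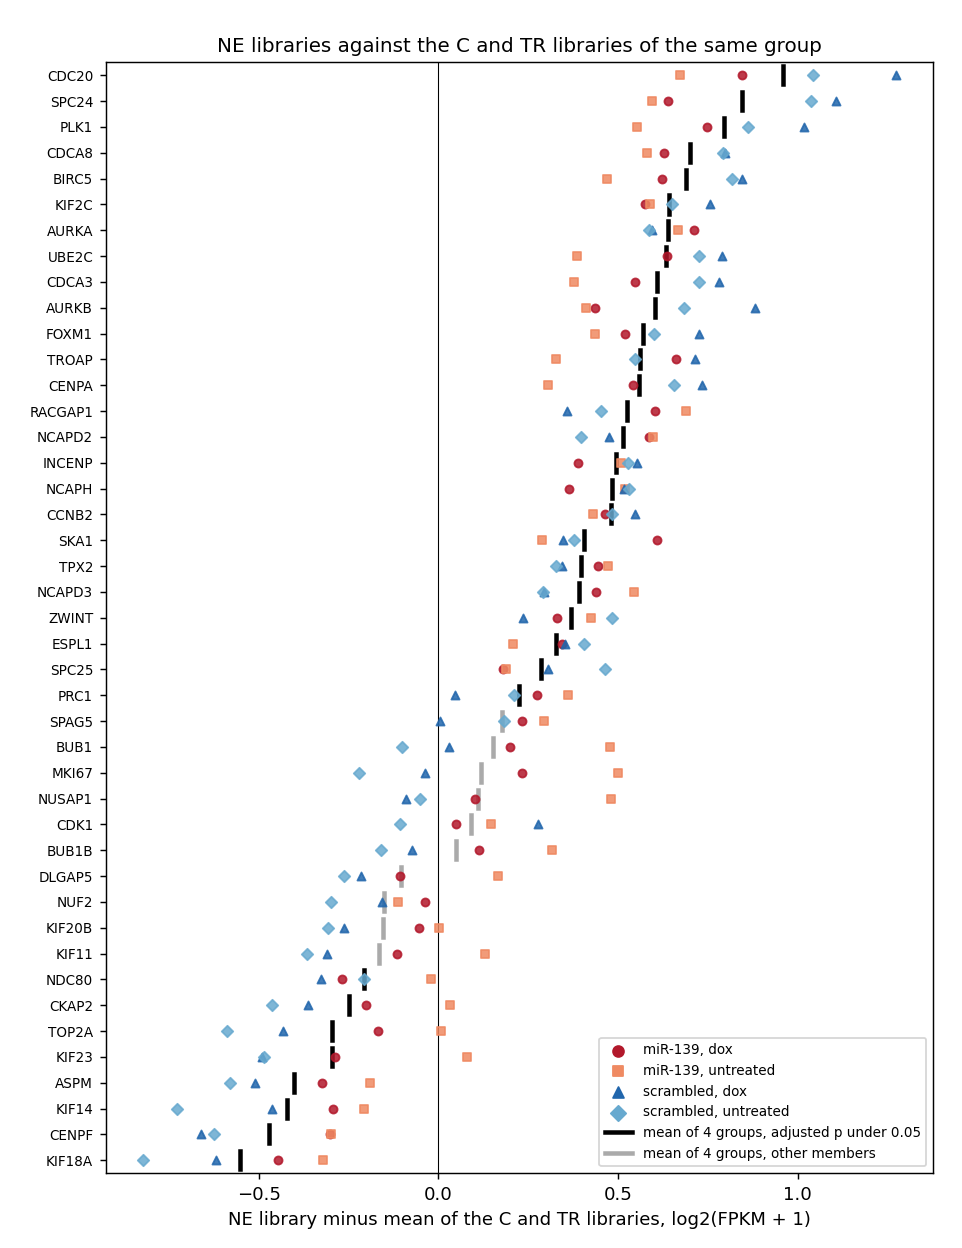
Difference of the NE library from the mean of the TR and C libraries of the same group, in log2(FPKM + 1), for each mitosis gene (rows, ordered by the mean of the 4 groups). Symbols are the 4 groups and bars their mean, black where the adjusted p was under 0.05. CDC20, SPC24 and PLK1 stand at the top and KIF14, CENPF and KIF18A at the bottom, with all 4 groups on the same side of 0 in each of these 6.

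Among CDK1 and the mitotic kinases, 4 of 5 genes were higher in the NE libraries. PLK1 had 108, 92.8, 136 and 118 FPKM in the NE libraries, against 61.5, 65.4, 72.2 and 70.3 FPKM in the TR libraries and 66.7, 60.6, 61.9 and 58.98 FPKM in the C libraries. Its log2 difference was 0.80 (SE 0.08, limma adjusted p = 7.66e-06), and the NE libraries lay wholly above the other 8. AURKA, the Aurora kinase of centrosomes and spindle poles, differed by 0.64 and was even across groups, at 141 to 148 FPKM in the NE libraries, against 86.4 to 102 FPKM in the others. CDCA3, an F-box-like protein that triggers mitotic entry, differed by 0.61 and CCNB2, a B-type cyclin that binds CDK1, by 0.48. CDK1 itself was not called (0.09, SE 0.07): it had 91.4, 105, 115 and 78.5 FPKM in the NE libraries, against 87.6, 101, 89.1 and 85.6 FPKM in the TR libraries and 88.9, 88.8, 102 and 83.6 FPKM in the C libraries, which overlapped. FOXM1, the transcription factor that activates late cell cycle genes, had 84.6, 78.2, 86.9 and 83.5 FPKM in the NE libraries, against 54.9, 57.7, 56.8 and 63.9 FPKM in the TR libraries and 62.97, 57.5, 47.9 and 46.98 FPKM in the C libraries, without overlap (log2 0.57, SE 0.08, limma adjusted p = 0.000103).

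All 3 genes of the anaphase-promoting complex and separase were higher. CDC20 had 127, 109.5, 161 and 134 FPKM in the NE libraries, against 68.2, 70.7, 69.8 and 73.8 FPKM in the TR libraries and 72.4, 66.1, 62.5 and 56.7 FPKM in the C libraries. It was the gene with the highest log2 difference of the 43, 0.96 (SE 0.09, limma adjusted p = 5.55e-06), and its 4 NE libraries lay wholly above the other 8. UBE2C had 258 to 356 FPKM in the NE libraries, against 181 to 210.1 FPKM in the others (log2 0.63). ESPL1 differed by 0.33 (SE 0.09, limma adjusted p = 0.00610). Of the 3 checkpoint genes, ZWINT was higher (0.37, SE 0.07; 0.18 and not called after quantile normalization), with 126 to 156 FPKM in the NE libraries, against 98.6 to 121 FPKM. The checkpoint kinase BUB1 (0.15, SE 0.09) and BUB1B (0.05, SE 0.09) were not called.

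The 7 kinetochore genes divided, with 4 higher, 2 lower and 1 not called. SPC24 had 61.8, 60.7, 80.1 and 69.6 FPKM in the NE libraries, against 41.6, 47.4, 43.1 and 39.4 FPKM in the TR libraries and 37.1, 33.5, 31.1 and 28.3 FPKM in the C libraries, a log2 difference of 0.84 (SE 0.09, limma adjusted p = 1.11e-05). SPC25, its partner at the inner end of the NDC80 complex, was higher by 0.28 (SE 0.07, limma adjusted p = 0.00270). Those at its outer end were not: NDC80, which binds the microtubule, was lower (log2 −0.21, SE 0.07, limma adjusted p = 0.0269), a call lost in 7 of the 12 fits that left out 1 library, and NUF2 was at −0.15 (SE 0.07, limma adjusted p = 0.0718). The 4 subunits of that complex, which stand in equal numbers in the protein complex, thus had RNA differences from −0.21 to 0.84. CENPF, a large protein of the outer kinetochore, had 33.9, 35.5, 27.3 and 26.5 FPKM in the NE libraries, against 38.6, 43.4, 45.2 and 46.4 FPKM in the TR libraries and 45.6, 44.4, 42.4 and 36.99 FPKM in the C libraries. Its NE libraries lay wholly below the others (log2 −0.47, SE 0.09, limma adjusted p = 0.000550). CENPA, the histone H3 variant of the centromere, was higher (0.56, SE 0.08), as was SKA1 (0.41, SE 0.08).

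All 4 genes of the chromosomal passenger complex, which corrects faulty attachments and directs cytokinesis, were higher in the NE libraries. They were among the 22 of the 43 whose NE libraries lay wholly above the others. AURKB had 188, 183, 256 and 205 FPKM in the NE libraries, against 125, 139.9, 132 and 126 FPKM in the TR libraries and 154, 135, 145 and 129 FPKM in the C libraries (log2 0.60, SE 0.08, limma adjusted p = 6.34e-05). CDCA8, the subunit also called borealin, differed by 0.70, BIRC5 (survivin) by 0.69 and INCENP, the scaffold, by 0.49, each with an SE of 0.07 to 0.09.

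Of the 6 kinesins, 1 was higher and 3 were lower. KIF2C, the microtubule-depolymerizing kinesin of the centromere, had 68.9 to 80.2 FPKM in the NE libraries, against 41.9 to 50.5 FPKM in the others (log2 0.64, SE 0.06, limma adjusted p = 7.66e-06). KIF18A had 18.7, 19.5, 17.1 and 13.6 FPKM in the NE libraries, against 23.7, 24.9, 24.5 and 25.2 FPKM in the TR libraries and 28.2, 24.3, 29.3 and 24.5 FPKM in the C libraries, the lowest difference of the 43 (log2 −0.55, SE 0.09, limma adjusted p = 0.000151). KIF14 was lower (log2 −0.42, SE 0.10, limma adjusted p = 0.00359), though not called without the filter (adjusted p = 0.0658), and its NE and other libraries did not overlap, at 6.69 to 10.39 FPKM in NE, against 10.44 to 14.00 FPKM. KIF23, the kinesin of the central spindle, was lower (−0.30, SE 0.09), although its NE library was not the lowest in the untreated miR-139 line, and it was not called without the filter either (adjusted p = 0.134). KIF11 (−0.17) and KIF20B (−0.16), which acts in cytokinesis, were not called.

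Of the 9 spindle and midzone genes, 4 were higher, 2 lower and 3 not called. TROAP (0.56), RACGAP1, the GTPase-activating protein of the central spindle (0.53), TPX2 (0.40) and PRC1 (0.22) were higher, with SEs of 0.07 to 0.09. RACGAP1 had 93.9, 102, 79.5 and 82.9 FPKM in the NE libraries, against 60.5, 68.4, 66.7 and 68.2 FPKM in the TR libraries and 62.5, 58.1, 57.4 and 53.3 FPKM in the C libraries. KIF23, its partner in the centralspindlin complex, was lower in the same libraries, as given above. ASPM had 19.5, 23.96, 17.5 and 17.1 FPKM in the NE libraries, against 23.5, 27.1, 27.3 and 29.3 FPKM in the TR libraries and 25.9, 27.9, 23.6 and 23.2 FPKM in the C libraries and was lower (log2 −0.40, SE 0.08, limma adjusted p = 0.00138). CKAP2, a spindle-stabilizing protein, was also lower (−0.25, SE 0.08). SPAG5 (astrin), at 0.18 with a limma adjusted p of 0.0513, and the microtubule-associated NUSAP1 (0.11) and DLGAP5 (−0.10) were not called.

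Of the 5 genes of condensin and the chromosome axis, 3 were higher and 1 was lower. NCAPD2 had 111, 106, 114 and 101 FPKM in the NE libraries, against 65.1, 64.1, 81.9 and 81.8 FPKM in the TR libraries and 83.98, 75.8, 81.9 and 71.4 FPKM in the C libraries, without overlap (log2 0.51, SE 0.08, limma adjusted p = 0.000131). NCAPH, its partner in condensin I, was higher by 0.48 (SE 0.07), and NCAPD3, a condensin II subunit, by 0.39 (SE 0.09). The call of NCAPD3 was lost without the filter (limma adjusted p = 0.0527) and after quantile normalization (0.24, adjusted p = 0.0522). TOP2A, the topoisomerase that untangles sister chromatids, was lower (−0.30, SE 0.09): it had 97.9, 111, 82.7 and 72.9 FPKM in the NE libraries, against 104, 111, 112 and 113 FPKM in the TR libraries and 116, 111, 112 and 108 FPKM in the C libraries, and the NE library of the untreated miR-139 line lay among the others. MKI67 was not called (0.12, SE 0.13), and its NE differences ran from −0.22 in the untreated scrambled line to 0.50 in the untreated miR-139 line.

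The direction of the NE difference went with the base composition of the mRNA. The G + C content of the 43 mRNAs (longest coding transcript in GENCODE 29) ran from 34.2% to 59.6% with a median of 46.5%, against 50.8% for the tested genes. Of the 13 mitosis genes under 42% G + C, 2 were above 0 in the NE comparison, with a median of −0.21, against −0.22 over the tested genes in that range. Of the 15 from 42% to 50%, 14 were above 0, with a median of 0.39, against −0.02 over the tested genes in that range. All 15 of at least 50% were above 0, with a median of 0.61, against 0.15. The 8 genes called lower had 36.8% to 42.3% G + C, and PLK1 and CDC20 had 57.3% and 57.9%. Across the 43 genes, Pearson's r between G + C and the NE difference was 0.82 and Spearman's rho 0.82, and across 7965 tested genes with a value (81.5% of those tested) they were 0.34 and 0.37. With mRNA length rho was −0.53 across the 43 genes and −0.33 across the tested genes, and the rho of length with G + C across the 43 genes was −0.26. These are correlations across genes of the same 12 libraries, which are not independent replicates, and the part of base composition or length in the result was not tested.

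**Figure D5:**
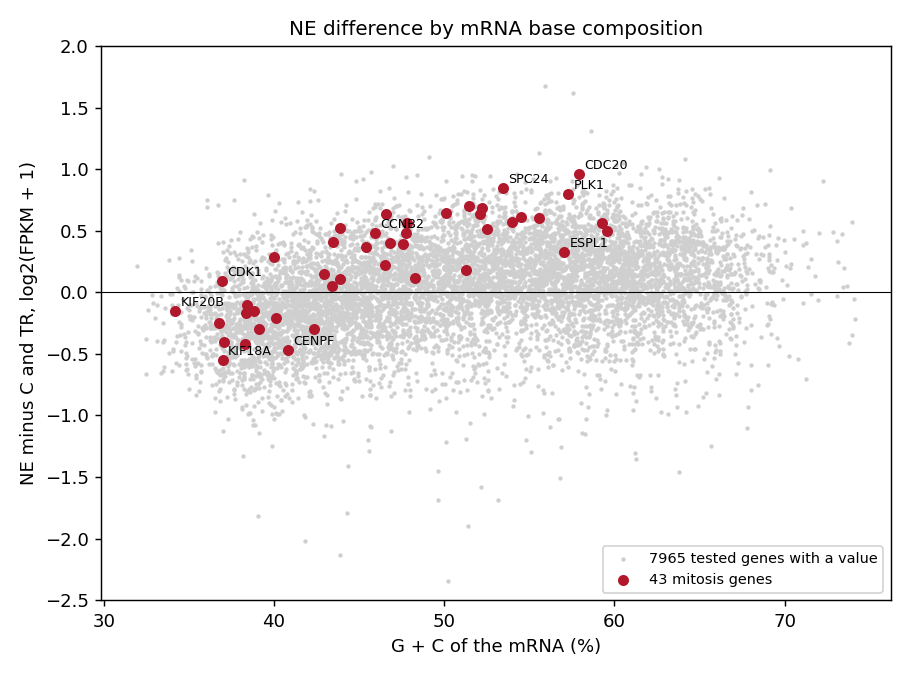
Difference between the NE libraries and the C and TR libraries in log2(FPKM + 1) (vertical axis) against the G + C content of the mRNA in percent (horizontal axis), for 7965 tested genes (grey) and the 43 mitosis genes (red). The mitosis genes under 42% lie mostly below 0 and those of at least 50% all above it.

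For the change with doxycycline in the miR-139 line, where no gene of the 43 was called, rho with G + C was 0.62 across the 43 genes and 0.37 across the tested genes. For doxycycline in the scrambled line it was 0.12 and 0.01, and for TR minus C 0.07 and 0.09. Some marker genes also differed with the NE tag, in both directions. The 4 keratinocyte markers summed to 16.8 to 22.3 FPKM in the NE libraries, against 9.97 to 16.3 FPKM in the C and TR libraries. KRT10 alone made this difference: KRT5 and KRT1 were listed at 0 and KRT14 was at or below 0.0463 FPKM. The mean in the NE libraries was also higher for KRT8 (730 against 562 FPKM) and PAX8 (121 against 99.3 FPKM). It was lower for the epithelial marker EPCAM (30.3 against 43.6 FPKM) and the fibroblast marker COL1A1. The part of these marker differences in the result was not tested, nor was that of the lower mitochondrial share given above.

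Between the TR and the C libraries 2 of the 43 mitosis genes were called. limma called SPC24 higher, against 8.49% of tested genes, and NCAPD3 lower, against 8.16%, with a median over the 43 genes of 0.05 and −0.01 over all tested genes. SPC24 differed by 0.39 (SE 0.10, limma adjusted p = 0.0199), with 41.6, 47.4, 43.1 and 39.4 FPKM in the TR libraries, against 37.1, 33.5, 31.1 and 28.3 FPKM in the C libraries. NCAPD3 differed by −0.31 (SE 0.10, limma adjusted p = 0.0465), with 45.3, 48.8, 59.3 and 57.8 FPKM in the TR libraries, against 71.1, 67.8, 67.4 and 56.4 FPKM in the C libraries. NCAPD3 was no longer called after upper quartile scaling, quantile normalization or without a variance trend, and neither gene was called without the filter. Leaving out 1 library at a time, SPC24 lost its call without the C or the TR library of the untreated miR-139 line (limma adjusted p = 0.0507 and 0.0721), the C library of the treated scrambled line (0.0852) or that of the untreated scrambled line (0.0871). NCAPD3 lost its call in 8 of the 12 such fits, at adjusted p of 0.0527 to 0.195; only those without the NE library of the untreated miR-139 line, the NE library of the treated scrambled line, or the TR or C library of the untreated scrambled line kept it. Next came CCNB2 (0.20) and RACGAP1 (0.19) at the high end, and TROAP (−0.24) and KIF23 (−0.18) at the low end, none called, although CCNB2 was called higher after quantile normalization. By group the median of TR minus C was −0.13 in the miR-139 line with doxycycline (7 genes above 0), 0.05 untreated (26), 0.03 in the scrambled line with doxycycline (27) and 0.19 untreated (38).

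The other cell cycle genes of the table were counted beside the 43. Of 71 further genes of mitosis listed, 45 were tested; limma called 28 of them higher and 4 lower in the NE libraries, against 28.0% and 24.0% of all tested genes, with a median of 0.27 and with CKS1B, a subunit of CDK complexes (0.90), and OIP5, a centromere protein (0.84), highest. Of 46 genes of DNA replication and the G1/S transition, 35 were tested; 28 were higher and 0 lower (28 had a p under 0.05 before adjustment), with a median of 0.58, and GINS2 (1.10) and MCM5 (0.93), of the replicative helicase, highest. Of 22 DREAM and MuvB regulators, 17 were tested; 8 were higher and 4 lower, with a median of 0.23, MYBL2 at 0.87 and E2F1 at 0.58. Of 20 inhibitors and G1 cyclins with their kinases, 13 were in the table and 12 were tested; 5 were higher and 2 lower, with CDK2 at 0.76 and CDK4 at 0.62. The higher values in the NE libraries thus extended to genes of S phase, whose median was above that of the mitosis genes; the difference between the lists was not tested.

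In the comparisons of groups, limma called 0 genes of these 4 lists without the block. Their medians with doxycycline in the miR-139 line were −0.06 for the further mitosis genes, −0.01 for DNA replication, 0.04 for the DREAM and MuvB regulators and 0.05 for the inhibitors and G1 cyclins. Before adjustment 0 of these genes had a p under 0.05 without the block. With the block 1, 1, 1 and 2 genes did, in the same order, and none was called. In the scrambled line the medians with doxycycline were 0.03, 0.04, −0.04 and 0.05 in the same order. Before adjustment 0 genes had a p under 0.05 there too without the block. With the block 1 gene did, of the inhibitors and G1 cyclins, and it was not called. The widest changes with doxycycline in the miR-139 line over the 4 lists were those of E2F7, a repressor of E2F target genes (−0.53, SE 0.25), and CDKN1C, an inhibitor of cyclin-dependent kinases (0.32, SE 0.23), neither called.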

How the data were processed

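PolyA RNA of 12 CAL62 libraries in 4 groups of 3 was analysed. The authors deposited 1 table of FPKM values, scaled to transcript length and to mapped fragments. The submitters' processing notes list the aligners STAR 2.5, TopHat2 2.0.10, TopHat and Bowtie 1.0.0, the counters Cufflinks and HTSeq, SAMtools (1.3.1 and 0.1.19), FastQC 0.11.0 and the builds hg19 and GRCh37. The tool and annotation behind the FPKM values and any use of the kit's strand information are not stated there, so reads shared by overlapping genes cannot be told apart. FPKM carry no counts: the depth is unknown, and no counting interval is given. FPKM are relative to the library, so a group of genes that takes more of a library lowers the others. Genes on chromosomes 3 to 9 are not analysed here.

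Column names gave the group and a tag (NE, TR or C), not the replicate letter of the titles, so libraries are named by group and tag. Per the series' design text there were 3 repeats of the experiment, but no label ties libraries to a repeat or a culture. The p-values thus measure only how far these libraries vary, part of which may be technical. No pair of libraries was identical (0 of 66). Deviations from the group mean correlated between all 18 pairs of the same tag in different groups (r 0.33 to 0.86, median 0.63), against −0.66 to 0.14 (median −0.37) for 36 pairs of different tags. Deviations from a group mean cancel over its tags, so positive values for the same tag force lower ones between different tags. The latter are no separate evidence. The tags were taken to pair the libraries from the values of the same tag. This pairing comes from the column names and the data, not from the labels.

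Tests used limma 3.58.1 in R 4.3.3 (moderated, trend on expression, two-sided, Benjamini-Hochberg over 9778 genes with a mean FPKM of at least 1, threshold 0.05) on log2(FPKM + 1), which understates changes of low genes. The 5 comparisons of groups were fitted on the 4 group means without a block, and the 2 comparisons of tags with group in the fit. Alternatives were the tag as replicate block, upper quartile scaling, quantile normalization, a pseudocount of 0.1, no filter or a mean of at least 5 FPKM, no trend, no NE libraries, and leaving out each library. Summaries and figures used Python 3.11.15, pandas 2.3.3 and NumPy 2.4.6.

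The 43 genes, the roles and the other gene lists were chosen with earlier results of these data known, so no p-value over a list is given. Any of the 43 may be named; values per library are given for the 3 highest and the 3 lowest in level and, per comparison, for members among the 3 lowest and 3 highest changes, and, of the other lists, the 2 genes with the widest change per list were eligible. Promoter and miRNA sequences are RefSeq's (GRCh38.p14) and mRNA features GENCODE 29's (GRCh38), not of the authors' build. All 43 genes and 7965 of the tested genes were matched (7632 by current and 333 by older symbols).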

Additional observations from a re-analysis of the deposited data

How the results depend on the processing

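With the tag as a replicate block the 5 comparisons of groups kept their log2 changes, and 0 of 43 mitosis genes were called in each, as without it; the block changed no call on them. Over all alternatives that were run, 0 of the 43 were called in these 5 comparisons. The median for the difference between the lines' doxycycline changes was −0.059 after upper quartile scaling, −0.059 after quantile normalization and −0.060 without the NE libraries, also with the block. The NE median was 0.25 after upper quartile scaling and 0.22 after quantile normalization. Of TR minus C, 1 gene was called after upper quartile scaling, 1 without a trend, 0 without the filter and 2 after quantile normalization (SPC24 and CCNB2, both higher).

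Leaving out 1 library makes the tags unequal between groups. The medians then ran from −0.12 to 0.086 (doxycycline, miR-139 line), −0.043 to 0.14 (doxycycline, scrambled line), −0.16 to 0.053 (difference between these), −0.07 to 0.09 (lines after doxycycline), −0.046 to 0.16 (lines untreated), 0.33 to 0.41 (NE) and −0.01 to 0.07 (TR minus C). Between 28 and 35 genes were called for NE, lowest without the NE library of the untreated scrambled line. The share of all tested genes called is not given for these fits. For TR minus C, between 0 and 3 genes were called. There, neither gene was called without the C or TR library of the untreated miR-139 line or the C library of the treated scrambled line. Genes that changed sign were, with doxycycline in the miR-139 line, NCAPH (−0.030 to 0.26), CDC20 (−0.19 to 0.32) and TROAP (−0.041 to 0.42); in the scrambled line, SKA1 (−0.21 to 0.026), ZWINT (−0.23 to 0.075), KIF18A (−0.099 to 0.38) and AURKB (−0.11 to 0.41); between these, TROAP (−0.15 to 0.31), FOXM1 (−0.12 to 0.33), NCAPH (−0.060 to 0.29) and KIF14 (−0.42 to 0.0050); between treated lines, PLK1 (−0.40 to 0.19) and UBE2C (−0.36 to 0.11); between untreated lines, TROAP (−0.20 to 0.091), NCAPD2 (−0.26 to 0.096) and PLK1 (−0.34 to 0.15). None of these was called. The depth behind each value is unknown, which limits the lowest genes most.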
